A study of Salmo salar with 16 samples.

Results

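Keratins are the intermediate filament proteins of epithelial cells. A type I and a type II chain pair to make each filament, and the filaments are anchored at desmosomes between cells and at hemidesmosomes on the basement membrane. In mammals keratin 8 (type II) and keratin 18 (type I) are the pair of simple epithelia such as the liver, whereas other members belong to layered epithelia such as skin and the lining of the mouth. Their distribution over tissues in the Atlantic salmon (Salmo salar) was described here for every gene that the annotation of assembly ICSASG_v2 names a type I or type II keratin. The rule, a product or description holding "keratin, type", found 50 genes of 81574 in the count table, with no expression value used. They were 41 type I and 9 type II genes.

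The data are 16 RNA-Seq libraries of polyadenylated RNA, 4 each from the mid brain (brain below), pituitary gland, ovary and liver. All libraries came from 4 females, 3 years old and sexually immature, of the SALTAS selective breeding programme, a stock of North American origin. No treatment, genotype or time differed between the groups. Whole tissue pieces were used, so that fewer cells of a type and less RNA per cell cannot be told apart. The deposited raw counts summed to between 20638203 and 51858156 per library. Levels are given in CPM, the counts of a gene relative to those of its library after scaling for library composition with TMM factors. Values of replicates 1 to 4 are listed in that order, and means carry the SD over 4 libraries.

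Tissue identity was checked with marker genes. The 17 hepatocyte genes summed to 191614 to 213506 CPM in the liver against at most 177 elsewhere, and the 13 pituitary hormone genes to 361097 to 449943 CPM in the pituitary against at most 689.7. The 59 oocyte genes, eggshell proteins included, summed to 4536 to 5511 CPM in the ovary and were also high in the liver (20897 to 24119 CPM). The brain libraries were not alike. Summed levels of 20 collagen I, decorin and lumican genes, marking connective tissue and meninges, were 137, 105, 2071 and 1897 CPM in brain replicates 1 to 4. Replicates 3 and 4 thus stood apart, and many brain results are given with and without them.

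Many members of the family were at or near 0 in these tissues. A keratin gene was taken as detected in a tissue at 1 CPM or more in at least 2 of its 4 libraries. By that limit 25 of the 50 genes were detected in no tissue and 8 had no count at all. The pituitary gland had 21 detected keratin genes, the brain 15, and the ovary and liver 14 each. Of all 81574 genes, 27600 were detected in the pituitary gland, 29937 in the brain, 24876 in the ovary and 25065 in the liver. How many of all genes were detected in no tissue is not given, so low levels are not shown to be particular to keratins. In the pituitary gland 7 of the 9 type II genes were detected, against 5 in the brain, 4 in the liver and 3 in the ovary. The number detected in all tissues was 9, and 5 genes were detected only in the pituitary gland, 2 only in the ovary, 1 only in the brain and none only in the liver. Such numbers over all genes are not given, so these are not shown to be particular to keratins. The gene detected only in the brain, LOC106583605, reached 1 CPM in replicates 3 and 4 alone. Without these replicates the number detected in the brain was 11.

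The members near 0 were mostly type I. Both keratin 9-like genes and the keratin 42-like gene had no count in any library, and the genes named keratin 17, 19 and 20 had no more than 36 counts over all libraries. Of the 20 genes named keratin 13, 8 had enough counts to be tested, and the other 12 had at most 0.826 CPM in any library. The 5 keratin genes on unplaced sequence and 1 of the 3 genes named 50 kDa had no count. Only uniquely mapped reads were counted, so reads shared by near-identical copies are missing from these values, and how far this lowered them was not tested. Among the 25 genes not tested, the highest level in any library was 6.46 CPM, in brain replicate 3 for LOC106583605 (keratin 8-like).

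**Figure D1:**
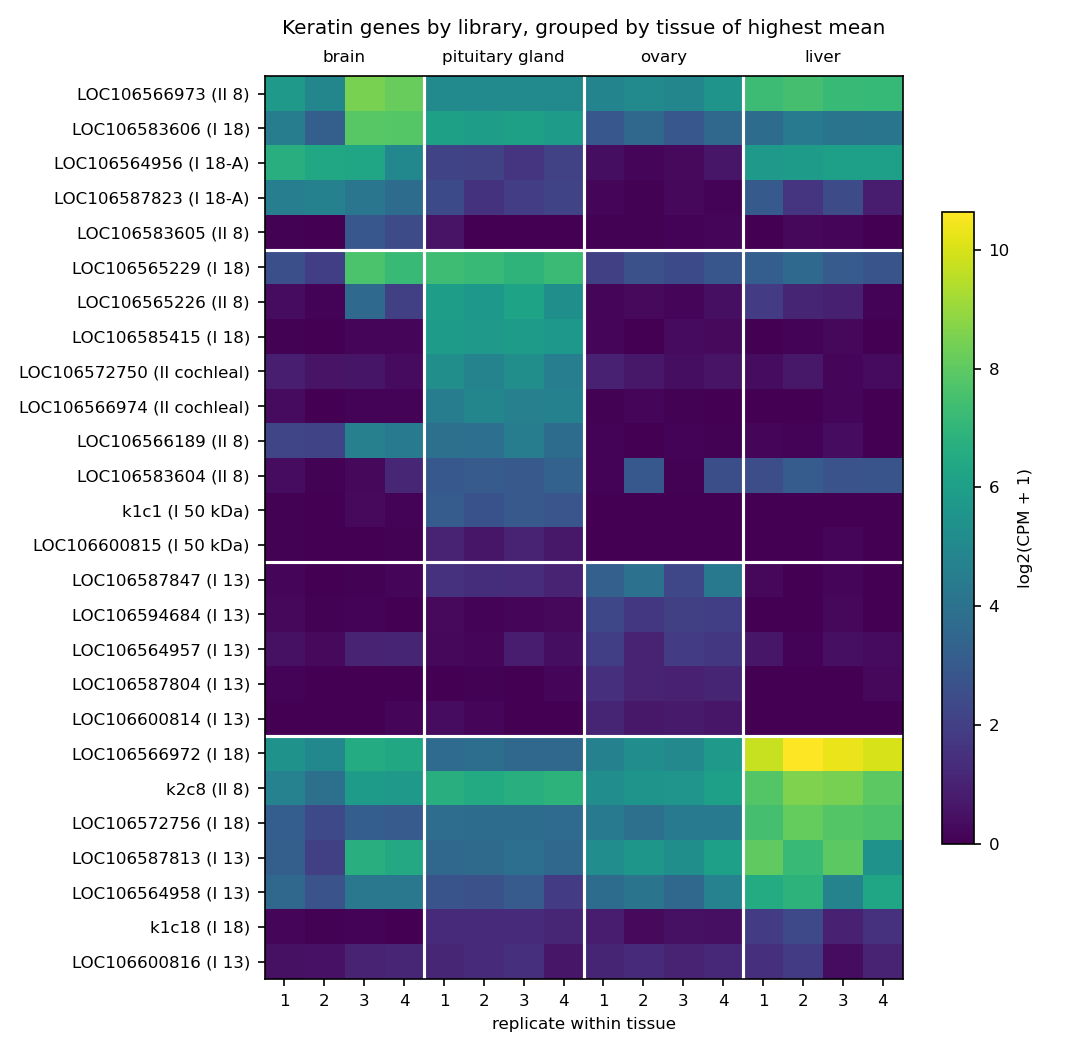
Levels of the 25 tested keratin genes and of LOC106583605, as log2(CPM + 1) in colour, for 16 libraries in columns (replicates 1 to 4 of each tissue) and genes in rows, sorted by the tissue with the highest mean. The type I 18 gene LOC106566972 in the liver is the brightest row, and brain replicates 3 and 4 differ from 1 and 2 in most rows with signal there.

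By mean level the liver had the most keratin RNA and the ovary the least. Summed over the 50 genes, keratins reached 2219.6 ± 466 CPM in the liver, 593 ± 30.5 in the pituitary gland and 237 ± 61.0 in the ovary. The brain mean of 676 ± 496 CPM covers a spread from 206 to 1214, with 306 in replicate 1 and 979 in replicate 4. Without replicates 3 and 4 it was 266 CPM. The liver libraries lay above all others, and the ovary range of 189 to 323 lay below the pituitary range of 567 to 631. As a percentage of raw counts, with no composition factor, keratins made 0.0979 to 0.141% in the liver and 0.0288 to 0.151% in the brain, and these ranges overlapped.

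**Figure D2:**
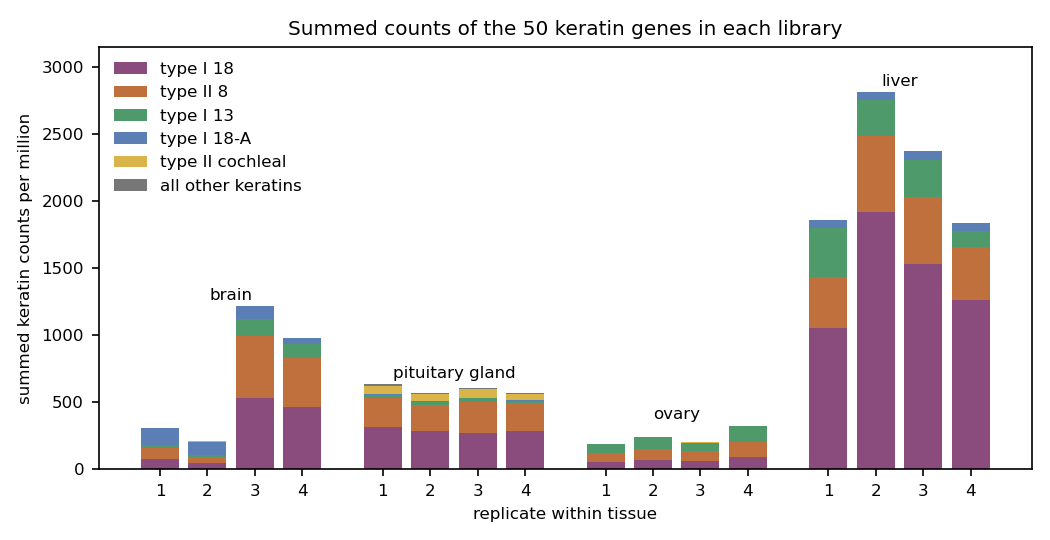
Stacked bars of summed keratin CPM in each of the 16 libraries, split by the number in the product name, with replicates 1 to 4 of each tissue along the x axis. Type I 18 genes make most of the liver bars, which end between 1839.5 and 2812 CPM, and the 4 brain bars range from 206 to 1214.

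Few genes carried each tissue's keratin pool. The 5 highest genes made 91.8% of liver keratin CPM and 70.8% of that of the pituitary gland, and the single highest 53.2% and 24.6%. Per kilobase of exon, where genes can be compared with each other, type II keratins stood at 0.579 ± 0.0562 of the type I level in the pituitary gland, 0.437 ± 0.0291 in the ovary, 0.431 ± 0.0445 in the brain and 0.237 ± 0.0107 in the liver. The liver range of 0.227 to 0.250 lay below all other libraries, and the pituitary range of 0.534 to 0.660 lay above them. Type I messages exceeded type II in every library on this scale.

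Differences between tissues were tested gene by gene with the edgeR quasi-likelihood test on all 37043 genes with enough counts, of which 25 were keratins. Both limits of the study were kept for a call, namely a Benjamini-Hochberg adjusted p no greater than 0.001 together with a difference of 2 or more on the log2 scale. Calls among the 25 keratins were 13 for pituitary gland against ovary (41.2% of all genes tested were called) and 13 for pituitary gland against liver (28.2%). They were 10 each for brain against pituitary gland (15.7%) and ovary against liver (40.8%), 9 for brain against ovary (46.6%) and 7 for brain against liver (32.9%). The share of keratins called was above that of all genes in the pairs with the pituitary gland and below or near it in the others. Of the 25 tested keratins, 28% were called higher in the pituitary gland than in the brain (4.91% of all genes), 40% than in the ovary (22.3%) and 32% than in the liver (17.3%). The ovary was higher in 12% against the brain (19% of all genes), 12% against the pituitary gland (18.9%) and 12% against the liver (22.3%). The liver was higher in 20% against the brain (10.8%), 20% against the pituitary gland (10.9%) and 28% against the ovary (18.5%). The brain was higher in 12% against the pituitary gland (10.7%), 24% against the ovary (27.6%) and 8% against the liver (22.1%). Between pituitary gland and liver the keratin share thus exceeded that of all genes in both directions. The spread of the brain libraries enters all 6 comparisons through the shared fit. Without brain replicates 3 and 4, where 28 keratins were tested, the calls were 13 for brain against pituitary gland (18.4% of all genes), 7 for brain against ovary (45.4%) and 8 for brain against liver (34.3%). They were 16 for pituitary gland against ovary (42.3%), 15 for pituitary gland against liver (29.4%) and 12 for ovary against liver (41.5%).

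The median keratin log2 fold change was 1.34 for pituitary gland over ovary, where that of all genes was -0.04, and -0.87 for brain over pituitary gland, where it was 0.05. For ovary over liver the medians were -0.90 and 0.38. In the pairs of the brain with the ovary and the liver, and of the pituitary gland with the liver, the keratin median lay within 0.5 of that of all genes. Library totals with no composition factor moved the median of all genes from 0.38 to 1.82 for ovary over liver and from 0.22 to 1.61 for brain over liver, so that levels against the liver depend on that factor.

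A gene was called tissue-specific when it was called higher than in each of the other 3 tissues. The pituitary gland had 5 such keratin genes of 25 (2.16% of all genes tested), the ovary 3 (11.1%), the liver 3 (5.8%) and the brain 1 (6.11%). Over all pairs 21 of the 25 keratins were called at least once (71.1% of all genes). Without brain replicates 3 and 4 the pituitary number was 8 of 28 (2.57% of all genes), with LOC106565226, LOC106565229 and LOC106566189 added.

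The genes named keratin 18 differed in their highest tissue. Product names are those of ICSASG_v2, and the newer RefSeq assembly Ssal_v3.1 lists some of these genes under other symbols. LOC106566972, a keratin 18-like gene on chromosome 13 (chr13:31910188-31915305), was the most abundant keratin of the data, with 850.3, 1599, 1282 and 1032 CPM in the liver libraries. It was 24.8, 35.7, 31.1 and 53.8 CPM in the ovary, 12.3, 13.2, 10.9 and 11.2 in the pituitary gland and 42.8, 29.97, 92.9 and 81.6 in the brain. No liver library overlapped another tissue, and the log2 fold change was 6.65 (SE 0.41, adjusted p = 1.0e-09) over the pituitary gland and 5.03 (SE 0.38, adjusted p = 4.5e-09) over the ovary. Its higher level in the brain than in the pituitary gland was called as well (log2 fold change 2.38, SE 0.34, adjusted p = 2.8e-05), but fell under the limit of 2, at 1.70, without brain replicates 3 and 4.

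LOC106572756, named keratin 18, on chromosome 15 (chr15:93301188-93307813), was specific to the liver too. It had 180.0, 279, 221 and 204 CPM there, against 19.1, 14.2, 19.3 and 20.1 in the ovary. The pituitary libraries held 13, 12.7, 12.4 and 12.3 CPM and those of the brain 8.15, 4.09, 8.17 and 7.33. The liver stood above every other library, by a log2 fold change of 4.998 (SE 0.23, adjusted p = 3.2e-11) over the brain and 3.603 (SE 0.21, adjusted p = 2.5e-10) over the ovary. LOC106572760, a keratin 18-like gene beside it, did not pass 1.19 CPM.

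LOC106565229 on chromosome 12 (chr12:41208690-41214977), krt18b in Ssal_v3.1, was the most abundant keratin of the pituitary gland, with 161, 146, 122 and 152 CPM. The liver had 8.08, 11.46, 7.25 and 5.84 CPM and the ovary 3.0, 5.29, 4.22 and 6.18. In the brain it was 5.02, 2.89, 197 and 149 CPM, so that replicates 3 and 4 reached the pituitary level and replicates 1 and 2 lay near the ovary range. Pituitary gland over ovary was called (log2 fold change 4.96, SE 0.996, adjusted p = 2.7e-04). Pituitary gland over liver, with no overlap of libraries, missed the limit (log2 fold change 4.15, SE 0.97, adjusted p = 0.0014) in the fit where all tissues share an estimate of the spread. It passed with the brain pairs left out in turn (adjusted p = 5.9e-10 without replicates 3 and 4) and when these tissues were fitted alone (adjusted p = 2.1e-09, edgeR).

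LOC106583606, a keratin 18-like gene on chromosome 22, had the same order outside the brain. Its pituitary libraries had 66.0, 59.3, 64.7 and 55.8 CPM, above the liver (12.4, 20.1, 15.9 and 16.8) and the ovary (6.51, 10.8, 6.37 and 11.2). Brain values were 21.4, 8.38, 233 and 227 CPM, from within the ovary range to above any pituitary library. Pituitary gland over ovary gave a log2 fold change of 2.82 (SE 0.73, adjusted p = 0.0022) and was not called, although it passed without brain replicates 3 and 4 (adjusted p = 6.1e-08, edgeR). Brain over ovary was called (log2 fold change 3.81, SE 0.76, adjusted p = 2.3e-04), with replicate 2 inside the ovary range, and fell to 0.89 without replicates 3 and 4. LOC106565229 was also called for brain over ovary (log2 fold change 4.24, SE 0.96, adjusted p = 7.4e-04), with -0.13 without these replicates. Its brain replicate 1 lay inside the ovary range and replicate 2 just below it.

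LOC106585415, a keratin 18-like gene on chromosome 24 (chr24:26582786-26596372) listed as krt1-c5 in the newer RefSeq assembly Ssal_v3.1, was high in the pituitary gland and near 0 elsewhere. The pituitary libraries had 57.4, 52.5, 56.1 and 49.6 CPM and no library of another tissue passed 0.239 CPM. The difference from the brain, 9.99 (SE 0.58, adjusted p = 3.7e-09), was the largest called keratin difference between these tissues. Against the liver, with 3 counts in all, the pooled ratio was 819 (exact interval 280.1 to 3972). Such intervals cover counting error only.

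k1c18, named keratin 18 on chromosome 1 (chr1:111179938-111194847) but listed as si:ch211-243g18.2 in Ssal_v3.1, was low everywhere. The liver had 2.75, 4.14, 0.996 and 1.84 CPM, the pituitary gland 1.399, 1.48, 1.41 and 1.21, the ovary 0.739, 0.214, 0.398 and 0.344 and the brain 0.148, 0.0414, 0.0885 and 0. Liver and pituitary libraries overlapped. Liver over brain was the largest called keratin difference in that direction (log2 fold change 5.11, SE 0.66, adjusted p = 3.9e-06), and pituitary gland over brain was called as well (log2 fold change 4.29, SE 0.64, adjusted p = 4.4e-05). The remaining 3 keratin 18-like genes, on chromosomes 13, 17 and 20, did not pass 0.514 CPM in any library.

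Of the 7 keratin 8 genes, the type II partners, 5 were tested, and none was tissue-specific in the fit over all libraries. LOC106565226 became specific to the pituitary gland with the DESeq2 Wald test, without brain replicate 3 and without either pair of brain replicates, 1 and 2 or 3 and 4. k2c8 on chromosome 15 was highest in the liver (218, 382, 347 and 249.7 CPM), followed by the pituitary gland (106, 89.5, 103 and 117), the ovary (36.1, 45.2, 45.2 and 62.8) and the brain (25.4, 14.3, 55.9 and 52.8). Liver libraries lay above all others, and liver over brain (log2 fold change 3.01, SE 0.36, adjusted p = 1.6e-06) and over ovary (log2 fold change 2.66, SE 0.35, adjusted p = 3.9e-06) were called. Against the pituitary gland the log2 fold change of 1.53 (SE 0.34, adjusted p = 9.0e-04) was under the limit of 2. Ovary and brain libraries overlapped. Pituitary gland over brain was called only without brain replicates 3 and 4 (adjusted p = 7.4e-06 against 0.0016, edgeR).

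LOC106566973, the keratin 8-like gene on chromosome 13, had 155, 179, 147 and 139 CPM in the liver. The pituitary gland had 33.4, 32.2, 32.1 and 33.3 CPM and the ovary 27.1, 32.9, 28.3 and 44.8, with overlapping ranges. The brain libraries, at 50.9, 28.4, 365 and 283 CPM, lay on both sides of the liver range, and brain over liver was not called (log2 fold change 0.23, SE 0.54, adjusted p = 0.72). Its sign turned to -1.81 without replicates 3 and 4, and to -0.36 without replicate 3 alone. Brain over ovary was called (log2 fold change 2.45, SE 0.57, adjusted p = 8.5e-04) and dropped to 0.38 without these replicates. Liver over pituitary gland and over ovary, with no overlap of libraries, missed the limit (log2 fold change 2.24, SE 0.56, adjusted p = 0.0024 for the former) and passed without them (adjusted p = 3.4e-08, edgeR).

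LOC106565226, keratin 8-like on chromosome 12, was highest in the pituitary gland, with 62.3, 50.1, 70.9 and 38.1 CPM there and at most 2.75 CPM in the liver and 0.344 in the ovary. Brain values were 0.266, 0.0691, 11.51 and 3.04 CPM, all below the pituitary gland. It was called over the ovary (log2 fold change 8.12, SE 1.26, adjusted p = 2.2e-05) and the liver (log2 fold change 5.52, SE 1.13, adjusted p = 4.6e-04), whereas over the brain it missed the limit (log2 fold change 3.91, SE 0.99, adjusted p = 0.0034). It passed there with either pair of brain replicates left out (adjusted p = 1.4e-07 without 3 and 4). An opposite-strand gene shares 140 bases of its exons, and the strand setting of the counting is not given in the sources used here, so that reads of the overlap cannot be told apart.

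LOC106566189, keratin 8-like on chromosome 12 (chr12:85229831-85239530) with no other keratin gene within 200 kb, was present in the brain and pituitary gland and near 0 elsewhere. The pituitary libraries had 14.1, 13.8, 21.3 and 12.6 CPM and the brain libraries 3.66, 3.58, 24.1 and 19.99. No ovary or liver library passed 0.272 CPM. Brain over liver was the largest called keratin difference of its direction (log2 fold change 6.81, SE 0.82, adjusted p = 1.9e-06), and pituitary gland over liver was called too (log2 fold change 7.08, SE 0.82, adjusted p = 1.5e-06). Brain and pituitary libraries overlapped.

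Of the other keratin 8-like genes, LOC106583604 on chromosome 22 had 6.70, 7.33, 6.78 and 9.14 CPM in the pituitary gland and 4.68, 7.67, 5.53 and 5.76 in the liver. In the ovary it was 0.0692, 6.72, 0.0531 and 4.96 CPM, so that replicates 2 and 4 were near the liver level and replicates 1 and 3 near 0. It was called in no pair. LOC106583716, on the same chromosome, had at most 0.0671 CPM. LOC106583605 beside LOC106583604 was detected only in the brain, at 0.0295, 0.0138, 6.46 and 4.38 CPM, which means only in replicates 3 and 4, and it was removed before testing as too few libraries held enough counts. These genes were chosen for mention after their values were seen.

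The cochleal-like type II genes, which take their name from a keratin of the chicken cochlea, were both specific to the pituitary gland. LOC106566974 on chromosome 13 had 21.4, 28.8, 23.99 and 24.9 CPM there and no more than 0.236 CPM in any other library. The log2 fold change was 8.72 (SE 0.63, adjusted p = 3.4e-09) over the ovary, the largest called keratin difference of that direction. In the liver it had 1 count over 4 libraries, which gives a ratio of 1122 with an exact interval from 201 to 44328.

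LOC106572750 on chromosome 15 had 37.4, 26.1, 37.3 and 22.6 CPM in the pituitary gland, and the highest value elsewhere was 0.992 CPM, in the ovary. It was called over the brain (log2 fold change 5.90, SE 0.44, adjusted p = 4.1e-08), the ovary (log2 fold change 5.67, SE 0.43, adjusted p = 5.9e-09) and the liver (log2 fold change 6.63, SE 0.49, adjusted p = 9.1e-09). Together the cochleal-like genes made 9.38% of pituitary keratin CPM.

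The pituitary-specific set was completed by the type I genes named 50 kDa, neighbours on chromosome 3. k1c1 had 7.55, 5.44, 6.88 and 5.91 CPM in the pituitary gland and at most 0.207 in the brain. The liver had no count of it, which puts the pituitary level at least 24.4-fold higher than the floor of 3 counts per library. Over the brain the log2 fold change was 6.31 (SE 0.60, adjusted p = 2.2e-06). LOC106600815 was low, with 1.03, 0.576, 1.04 and 0.624 CPM in the pituitary gland from 28, 14, 31 and 17 counts, and its highest value elsewhere was 0.0906 CPM. It was called in all pairs with the pituitary gland, for example over the brain (log2 fold change 5.25, SE 0.67, adjusted p = 9.1e-06), but not tested where genes under 1 CPM were removed.

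All 3 ovary-specific keratins were named keratin 13-like, type I chains that in mammals belong to the moist layered lining of mouth and oesophagus. Keratin 13-like genes made 35.1% of keratin CPM in the ovary against 11.7% in the liver, 8.20% in the brain and 3.63% in the pituitary gland. By level the order differed, since they summed to 83.7 ± 24.2 CPM in the ovary and 255 ± 99.9 CPM in the liver. The highest of them in the ovary was LOC106587813 (46.9 ± 12.5 CPM), which was not specific to it. Keratin 8 genes made 35.4% of ovary keratin CPM and keratin 18 genes 29.0%. LOC106587847 on chromosome 2 had 8.66, 14.8, 3.85 and 18.6 CPM in the ovary, 1.84, 1.65, 1.54 and 1.06 in the pituitary gland and at most 0.184 in the liver and 0.118 in the brain. No library overlapped, although the ovary values themselves differed by up to a factor of 4.84. It was called over the brain (log2 fold change 7.54, SE 0.74, adjusted p = 1.1e-07) and over the pituitary gland (log2 fold change 2.91, SE 0.55, adjusted p = 1.7e-04), the latter call being lost without pituitary replicate 4 (adjusted p = 0.0011) or ovary replicate 4 (adjusted p = 0.00102, edgeR).

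LOC106594684, on chromosome 2 (chr2:69661251-69673197) with no other keratin gene within 200 kb, had 3.99, 2.35, 3.05 and 2.90 CPM in the ovary. It had no more than 0.221 CPM in any other library. It was specific to the ovary under every alternative tried, with a log2 fold change of 5.31 (SE 0.69, adjusted p = 2.8e-06) over the brain. LOC106587804, the gene called krt98 in Ssal_v3.1, was near the limit of detection at 1.68, 1.09, 0.956 and 1.13 CPM in the ovary and 73, 46, 36 and 46 counts. Other libraries had at most 3 counts of it. Ovary over pituitary gland was called (log2 fold change 4.89, SE 0.93, adjusted p = 1.6e-04), but its call over the liver (log2 fold change 4.68, SE 1.05, adjusted p = 7.6e-04) was lost in 4 of 7 other settings and on leaving out each of 11 single libraries in turn (adjusted p up to 0.0040 without liver replicate 2, edgeR). The other tested keratin 13-like genes under 3 CPM were LOC106564957, LOC106600814 and LOC106600816, at no more than 2.95, 1.13 and 2.67 CPM in any library, and none of them was called in a pair.

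LOC106587813 on chromosome 2 was the highest keratin 13-like gene in the ovary and liver. It had 264, 146, 246 and 41.5 CPM in the liver and 36.6, 49.1, 38.1 and 63.6 in the ovary, which overlapped. The pituitary gland had 11.2, 11.7, 13.6 and 10.6 CPM and the brain 8.27, 3.05, 104 and 84.3. Liver over pituitary gland was called (log2 fold change 3.89, SE 0.86, adjusted p = 8.7e-04). Against the brain the liver was higher by 1.80 (SE 0.79, adjusted p = 0.051) with all libraries and by 4.81, past the limit, without brain replicates 3 and 4. Pituitary and liver libraries with the same replicate number deviated together, and with the number as a block the adjusted p was 0.0018 (edgeR), which ends the call and leaves 12 of 13 keratin calls for this pair.

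LOC106564958, keratin 13-like on chromosome 12, was called specific to the liver with 92.1, 118, 26.4 and 76.0 CPM. The ovary had 12.5, 15.9, 11.1 and 25.7 CPM and the brain 10.7, 5.66, 18.1 and 18.3, with liver replicate 3 just above the highest ovary library. The pituitary gland was lowest, at 5.71, 5.31, 7.38 and 2.61 CPM. Liver over pituitary gland gave 3.89 (SE 0.50, adjusted p = 4.2e-06) and liver over ovary 2.26 (SE 0.46, adjusted p = 3.1e-04). The call over the ovary was lost with library totals in place of composition factors, with a log2 fold change of 0.79. It was also lost without ovary replicate 1, 2 or 3 or liver replicate 1 or 2, where the adjusted p was 0.0011 to 0.0018 (edgeR). Its call over the brain was lost without brain replicates 1 and 2 and where brain and liver were fitted alone (adjusted p = 0.0018, edgeR). With the replicate number as a block the adjusted p over the ovary was 0.0011.

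The keratin 18-A-like genes, named after a Xenopus keratin, had their highest means in the brain. LOC106564956 on chromosome 12 had 103, 79.0, 76.2 and 29.97 CPM in the brain and 53.1, 57.0, 63.2 and 63.6 in the liver. It was far lower in the pituitary gland (3.498, 3.25, 2.15 and 3.19) and the ovary (0.300, 0.119, 0.212 and 0.564). Brain over ovary (log2 fold change 7.89, SE 0.45, adjusted p = 1.6e-10) and liver over ovary (log2 fold change 7.61, SE 0.44, adjusted p = 2.2e-10) were the largest called keratin differences of those pairs and directions, and brain over pituitary gland was called too (log2 fold change 4.57, SE 0.37, adjusted p = 9.7e-08). Brain and liver overlapped.

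LOC106587823 on chromosome 2 was the brain-specific keratin. It had 22.6, 24.8, 17.2 and 12.6 CPM in the brain, 4.27, 1.94, 2.78 and 3.56 in the pituitary gland, 6.98, 2.07, 4.35 and 0.751 in the liver and 0.0923, 0.0475, 0.159 and 0.0736 in the ovary. Every brain library lay above every other. The log2 fold change was 2.62 (SE 0.47, adjusted p = 2.5e-04) over the pituitary gland and 2.45 (SE 0.48, adjusted p = 2.7e-04) over the liver. The call was lost without brain replicates 1 and 2 (adjusted p = 0.0023 over the liver, edgeR), and without pituitary replicate 2, 3 or 4 or liver replicate 2, which left 0 brain-specific keratins in these 4 fits.

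The brain libraries differed from each other more in keratins than in most genes. Of the 15 keratin genes detected in the brain, 12 (80.0%) were higher in both replicates 3 and 4 than in both 1 and 2, against 27.5% of all genes detected there. LOC106583605, LOC106565226, LOC106564957 and LOC106600816 reached 1 CPM only in replicates 3 and 4, so that the detection limit itself fixed their order. These genes also enter the keratin SD below. The same limit was used for all genes. The median SD between brain libraries on the log2(CPM + 1) scale was 0.903 for keratins and 0.357 for all detected genes, whereas in the pituitary gland these were 0.184 and 0.161. In the ovary keratins had 0.364 and all genes 0.151, and in the liver 0.387 and 0.211.

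The step between brain libraries was not the same for all keratins. The highest brain library of LOC106565226 was 167 times the lowest, which held 5 counts, that of LOC106565229 68.4 times and that of LOC106587813 34.2 times. LOC106583605 had 1, 1, 219 and 144 counts, and no factor is given for it. For LOC106572756 the factor was only 2.0. The keratin 18-A-like genes LOC106564956 and LOC106587823 were the exceptions in direction, being lower in both replicates 3 and 4 than in 1 and 2.

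Several cell type markers also differed along this division. Of the 15 connective tissue genes detected in the brain, 13 were higher in both replicates 3 and 4 (27.5% of all genes detected there). Among them was col1a2 at 21.7, 9.85, 434 and 406 CPM. The division was first seen in the sum of this same list, so that this count is no separate evidence for it. The 10 neuron genes summed to 2624, 4173, 1296 and 1340.0 CPM in replicates 1 to 4 and the 13 glia genes to 23664, 10935, 12066 and 1976. Pituitary hormone genes summed to 452, 213, 484 and 552 CPM in the brain. The 6 ovarian follicle genes summed to 2.78, 1.09, 40.0 and 31.0 CPM there, and the 25 genes of epidermis and lining epithelium, none of them a keratin, to 9.27, 15, 24.6 and 20.6 CPM. The follicle, epithelial and pituitary hormone sums, like that of connective tissue, were higher in both replicates 3 and 4 than in both 1 and 2. That of neurons was lower. Red blood cell genes, at 147, 49.9, 301 and 198 CPM, were also higher there, and bile duct genes, at 137, 110, 95.3 and 80.9 CPM, were lower. Desmosome and plakin genes (489, 669, 463 and 427 CPM) and hemidesmosome genes (312, 358, 242 and 193 CPM) were lower in replicates 3 and 4 too. So were ciliated or ependymal genes (32.5, 43.1, 31.5 and 17.8 CPM). The part of these other cells in the brain keratin levels was not tested.

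**Figure D3:**
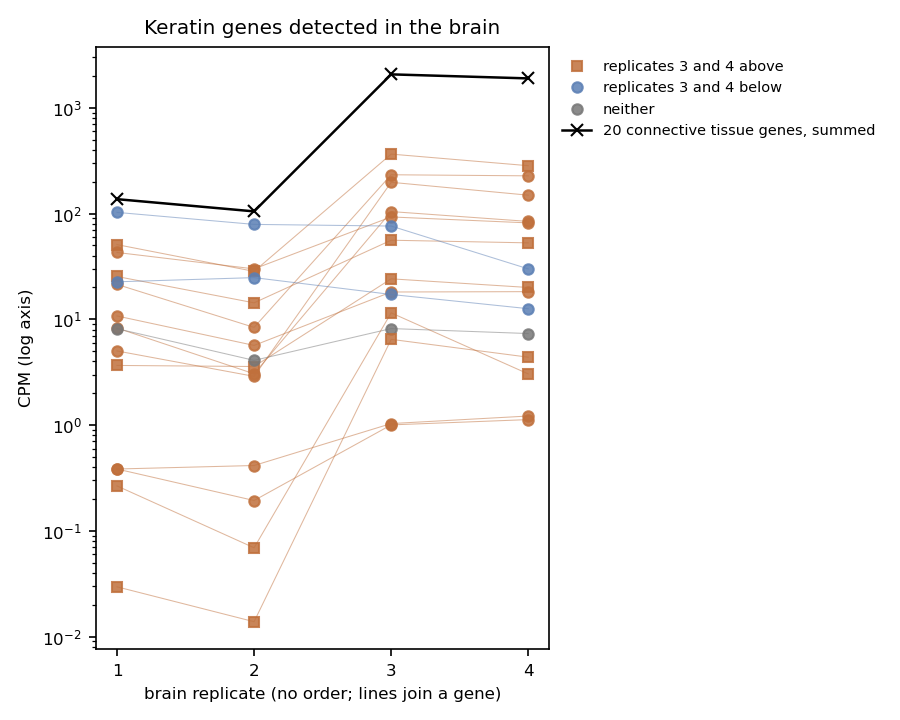
CPM on a log axis of the 15 keratin genes detected in the brain, in brain replicates 1 to 4, with circles for type I, squares for type II and thin lines joining a gene. The 12 genes in orange are higher in both replicates 3 and 4, the keratin 18-A-like genes in blue are lower, and the black crosses give the summed connective tissue genes.

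Position in the genome grouped the members further. With gaps of at most 200 kb, 35 of the 50 keratin genes fell into 7 loci of ICSASG_v2. The type I loci were on chromosome 12 (10 genes, chr12:22663906-22933426), chromosome 2 (9 genes, chr2:46213101-46479239) and chromosome 3 (4 genes, chr3:57975300-58008304). The loci of keratins 8 and 18 held both types and lay on chromosome 12 (2 genes, chr12:41208690-41290287), chromosome 13 (3 genes, chr13:31910188-32017004), chromosome 15 (4 genes, chr15:93189787-93312649) and chromosome 22 (3 genes, chr22:47025353-47125242).

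Neighbours within 200 kb were looked up by a fixed list of names, so that genes off this list could not appear. Several of the listed neighbours were shared between loci. On chromosomes 12 and 2 the keratin 18-A-like gene lay next to a tensin-4-like gene, 1.72 and 1.73 kb away. Beyond it followed C-C chemokine receptor type 7-like, SMARCE1-like and insulin-like growth factor-binding protein 4 genes in the same order. At or within the other end both loci had a cholecystokinin-like gene, a TRAK1-like gene and a junction plakoglobin gene. A junction plakoglobin-like gene also lay 111 kb from the chromosome 3 locus. All 4 loci of keratins 8 and 18 had an EIF4B gene and a tensin-2 gene on the keratin 18 side, and those of chromosomes 13 and 15 a plexin-B1-like gene beyond the cochleal-like gene. The annotation also places intermediate filament genes named ON3-like inside 2 loci of keratins 8 and 18. They were LOC106565228 on chromosome 12 (44.5 ± 8.51 CPM in the pituitary gland and 26.8 ± 30.03 in the brain) and LOC106572766 on chromosome 15. Their product name gives no keratin type and makes them no members. They are thus in none of the keratin counts, sums and ratios, those of type II included.

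Per kilobase of exon, the proportion of keratin 8 to keratin 18 at a locus also differed between tissues. On chromosome 13 the keratin 8 gene LOC106566973 stood at 2.60 ± 0.230 times the keratin 18 gene LOC106566972 in the pituitary gland, 0.881 ± 0.103 times in the ovary and 0.127 ± 0.0303 times in the liver, with no overlap of libraries. In the brain the ratio ran from 0.888 to 3.68. On chromosome 15 the ratio of k2c8 to LOC106572756 was 6.55 ± 0.808 for the pituitary gland, 2.09 ± 0.496 for ovary and 1.07 ± 0.131 for liver. In the brain it was 2.48, 2.78, 5.44 and 5.73, a mean of 4.11 ± 1.71 that fell to 2.63 without replicates 3 and 4, and the lowest brain library lay under the highest ovary library, at 2.52. On chromosome 12 LOC106565226 reached no more than 0.331 of the level of LOC106565229 in any library. No test was run on these ratios.

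**Figure D4:**
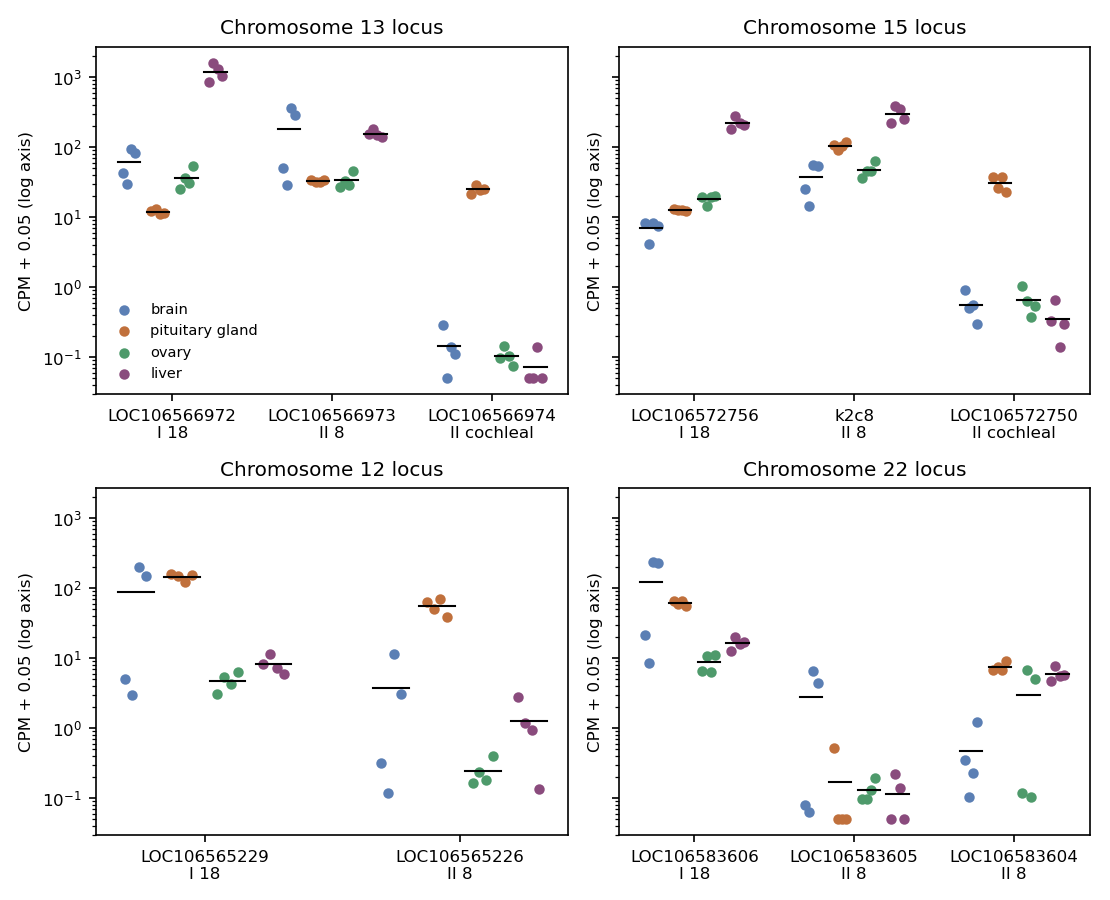
CPM plus 0.05 on a log axis for the keratin genes of the 4 loci that hold keratins 8 and 18, apart from LOC106572760, with a point per library, colours for tissues and a black line at the mean of 4 libraries. On chromosomes 13 and 15 the type I 18 gene is highest in the liver and the cochleal-like gene in the pituitary gland, whereas on chromosomes 12 and 22 the type I 18 gene is low in liver and ovary.

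Genes matched between these loci shared the tissue of their highest mean in most cases but not their proportions. The matches were made from gene order and strand after the values had been seen, and not for every place. No keratin beyond the third from tensin-4 was matched, nor were the keratin 8 genes of chromosomes 12 and 22. By order and strand the fourth would pair LOC106587804, specific to the ovary, with LOC106564977, which had no count in any library. Both keratin 18 genes of chromosomes 13 and 15 led in the liver, both cochleal-like genes in the pituitary gland and both 18-A-like genes in the brain. The second keratin from tensin-4 was highest in the ovary on both chromosomes, LOC106564957 (2.27 ± 0.836 CPM) and LOC106587847 (11.49 ± 6.55 CPM). The third was highest in the liver on both, LOC106564958 (78.1 ± 38.5 CPM) and LOC106587813 (174 ± 103 CPM). Some of these leads were not called and had overlapping libraries. They were those of LOC106564956 in the brain over the liver and of LOC106564957 in the ovary over the brain. The lead of LOC106587813 in the liver over the ovary and over the brain was of this kind too. By mean there were exceptions. Of the keratin 8 genes, k2c8 led in the liver and LOC106566973 in the brain, and of the keratin 18 genes LOC106565229 led in the pituitary gland and LOC106583606 in the brain, where the libraries of both disagree.

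Ratios within a library showed where matched genes differed, and 28 comparisons of 2 tissues were made with exact permutation tests of the log2 ratio, two-sided, in which 4 libraries against 4 cannot go below p = 0.0286. LOC106564956 was 3.63 ± 1.04 times LOC106587823 in the brain, 1.04 ± 0.429 times in the pituitary gland and 7.61 to 84.7 times in the liver. These sets did not overlap, and each of the 3 comparisons reached the smallest p (exact p = 0.0286, 0.05 after Benjamini-Hochberg adjustment over the 28). LOC106566972 was 8.77 ± 2.98 times LOC106572756 in the brain and 5.33 ± 0.520 times in the liver. In the ovary it was 2.02 ± 0.673 times and in the pituitary gland 0.943 ± 0.0666 times. Every pair of tissues reached the smallest p (exact p = 0.0286, adjusted 0.05) except brain against liver (exact p = 0.0857, adjusted 0.133).

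The keratin 8 genes of chromosomes 13 and 15 changed order between tissues. LOC106566973 stood at 1.98 to 6.52 times k2c8 in the brain, 0.285 to 0.359 in the pituitary gland and 0.626 to 0.751 in the ovary, with no overlap between these (exact p = 0.0286, adjusted 0.05). The liver, at 0.424 to 0.709, overlapped the ovary (exact p = 0.0571, adjusted 0.0941). LOC106565229 exceeded LOC106583606 in the pituitary gland, at 1.88 to 2.73 times, and was below it in every library of the other tissues (exact p = 0.0286 for the pituitary gland against each, adjusted 0.05). The third keratins from tensin-4, LOC106564958 and LOC106587813, showed no such difference in 6 comparisons (the smallest exact permutation p was 0.314), and their liver ratios alone ran from 0.107 to 1.83.

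**Figure D5:**
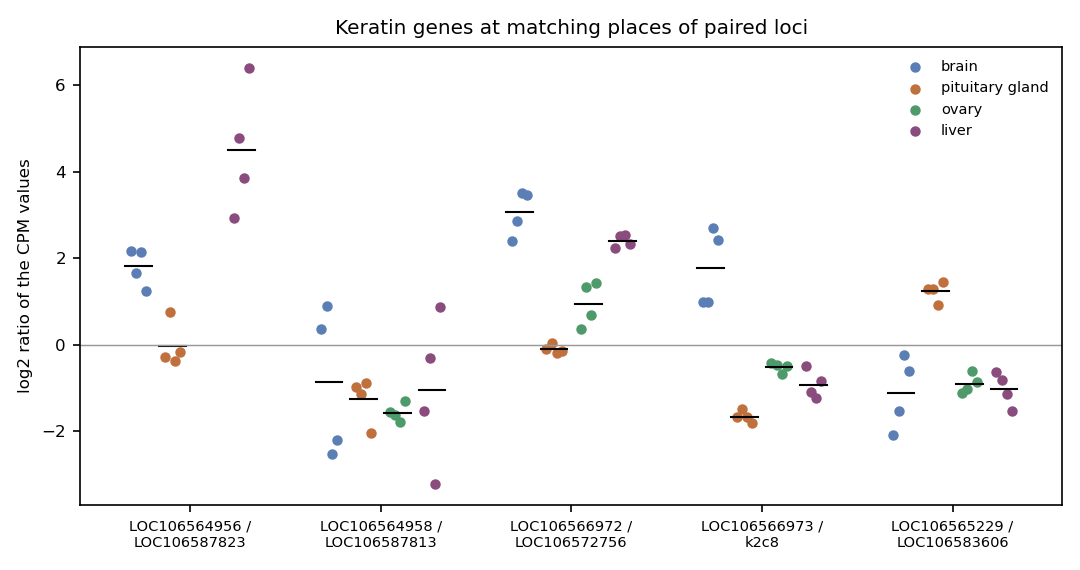
Log2 ratio of the CPM of keratin genes at matching places of paired loci, gene over gene as named on the x axis, with a point per library, colours for tissues, a black line at the mean and a grey line at equal levels. Tissues where either gene had under 3 counts in a library are left out. Pituitary libraries sit near 0 for LOC106566972 over LOC106572756, where all liver and all brain libraries exceed 2.

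Of 47 desmosome and plakin genes, which anchor keratin filaments, 36 were tested. Those specific to a tissue were 4 for the pituitary gland (2.16% of all genes), 4 for the ovary (11.1%), 2 for the liver (5.8%) and 1 for the brain (6.11%), so that in the ovary and liver the share was that of all genes. In the liver the highest was LOC106584072, desmoplakin-like, which links filaments to the desmosome, at 159 ± 13.8 CPM and specific to it. In the ovary it was LOC106576400, plakophilin-2-like (109.9 ± 5.39 CPM, specific), in the pituitary gland LOC106569165, desmoplakin-like (43.1 ± 6.14 CPM, specific), and in the brain LOC106600820, the junction plakoglobin-like gene near the chromosome 3 keratins (66.7 ± 39.0 CPM, specific). Between pituitary gland and ovary 12 of the 36 were called higher in the pituitary gland (22.3% of all genes) and 5 in the ovary (18.9%). Of the ovary and liver calls 10 favoured the ovary (22.3%) and 10 the liver (18.5%).

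Of 14 hemidesmosome genes 10 were tested, and 2 were specific, both to the pituitary gland (2.16% of all genes tested). They were col17a1 (collagen XVII, at 14.5 ± 10.6 CPM) and LOC106600084 (integrin alpha-6-like, at 42.4 ± 4.41 CPM). The highest was dystonin-like in every tissue, LOC106589788 in the brain (117 ± 43.2 CPM) and LOC106612695 in the pituitary gland (59.5 ± 7.54 CPM), ovary and liver. Of 25 genes of epidermis and lining epithelium 16 were tested, and 5 were specific to the pituitary gland (2.16% of all genes). The ovary (11.1%) and liver (5.8%) had 1 each, near or below those shares, and the brain none (6.11%). The whole list summed to 114 to 119 CPM in the pituitary gland, where 13 of 25 were detected, 329 to 372 in the ovary, 83.3 to 112 in the liver and 9.27 to 24.6 in the brain. Its part, and that of 6 ciliated or ependymal genes with their highest sum in the pituitary gland (53.8 to 76.1 CPM), in the pituitary keratins was not tested. Likewise 7 bile duct genes, of which 5 were detected in the liver, summed to 62.5 to 97.2 CPM there and 80.9 to 137 in the brain, and their part in the liver keratins was not tested. The 5 pituitary-specific genes were 4 like the epithelial splicing regulator ESRP1 and 1 like tumor protein 63, of which LOC106605952 was the highest (10.1 ± 1.59 CPM). epcam, an adhesion molecule of epithelial cells, was highest in the ovary (195 ± 17.2 CPM) and pituitary gland (55.5 ± 6.23 CPM).

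The other intermediate filament genes had a different leading tissue. Of the 40 tested among 60, 19 were specific to the brain (6.11% of all genes tested) and 3 to the ovary (11.1%). The pituitary gland had 1 (2.16%) and the liver none (5.8%). Outside the brain these counts were near or below the share of all genes. The brain-specific genes were, apart from a desmin-like gene, genes of neurofilaments, alpha-internexin, peripherin, glial fibrillary acidic protein and nestin. They were led by nfm, a neurofilament of nerve cells (1325 ± 821 CPM). Brain replicate 4 stood apart, as the list summed to 6261, 6331, 6424 and 1539 CPM in replicates 1 to 4. vim, vimentin of connective tissue and other cells, was highest of the list in the pituitary gland (474 ± 63.9 CPM) and ovary (301 ± 24.01 CPM), whereas in the liver it stood at 11.1 ± 2.23 CPM and the lamin gene lmnb2 led at 45.5 ± 4.20 CPM.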

How the data were processed

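RNA of 4 tissues was sequenced from a stranded poly(A) library protocol. The authors mapped reads of quality over 30 to assembly ICSASG_v2 with TopHat2 (2.1.1), sorted them with SAMtools (1.4) and made raw counts per gene, of reads mapped uniquely to exons, with HTSeq (0.7.2). The strand setting of the counting is not given in the sources used here. The deposited raw counts and annotation were used, and a second deposited table of centered log2 values was not.

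Counts were analysed with edgeR (4.0.16) in R (4.3.3): filterByExpr took out genes with low counts, TMM factors were computed, and 1 mean per tissue was fitted over all 16 libraries with the quasi-likelihood method, followed by a test of each of the 6 pairs of tissues with Benjamini-Hochberg adjustment over all 37043 genes. The steps were tested on simulated data with the same dispersion for every gene and no division within a tissue. Such data do not cover the spread of the brain libraries. DESeq2 (1.42.0) served as an alternative. Levels per kilobase divide the CPM by the exon length of the annotation. Ratios over 1 to 3 counts carry exact intervals at the level 0.95.

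The members and gene lists were chosen with earlier results of these data known. The genes named were the 5 highest keratins of each tissue, each tissue-specific keratin, and for each pair and direction the called keratin with the largest fold change, and from other lists the highest gene of each tissue and tissue-specific examples. The labels number the libraries of each tissue 1 to 4, and whether a number stands for a fish is not given. Correlations of the deviations of same-numbered libraries exceeded 0.1 for every number only between pituitary gland and liver. Printed values come from the fit without a block, and for that pair the value with the replicate block is given where it changes a call. Since the fish behind each library is not given, p-values measure the spread between these libraries. Of the 50 keratin IDs, 44 were found in the RefSeq table of assembly Ssal_v3.1, 4 of them under another symbol. No coordinates were taken from that table.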

Additional observations from a re-analysis of the deposited data

Results flagged for a closer look

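The 62 sets of 4 libraries examined were of named keratin genes, of the summed keratin CPM and of the type II to type I ratio. In 2 of them, both of a gene, 1 library stood far from the other 3 by the gap relative to the range. Chance gives about 1 set in 20. LOC106572756 had 14.2 CPM in ovary replicate 2, against 19.1, 19.3 and 20.1 in the other ovary libraries. LOC106566189 had 21.3 CPM in pituitary replicate 3, against 14.1, 13.8 and 12.6 in the other pituitary libraries. Neither changed the tissue in which the gene had its highest mean.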

How the results depend on the processing

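Leaving out brain replicates 3 and 4, or 1 and 2, was added after the data had been seen. Among the values of single genes under the alternatives, 480 kept their direction and side of the limits, 25 no longer passed, 7 passed newly and 12 changed sign. Without brain replicates 3 and 4 the pituitary gland had 8 specific keratins, brain over liver of LOC106566973 turned to -1.81 and brain over pituitary gland of LOC106583606 to -1.98. Without replicates 1 and 2, pituitary gland over brain turned to -0.25 for LOC106565229 and -0.51 for LOC106566189, and brain over liver of LOC106564956 to -0.15. With 1 library left out, LOC106566973 brain over liver ranged from -0.36 to 0.59, LOC106566189 pituitary gland over brain (-0.043 without brain replicate 2) from -0.04 to 0.80, the brain-specific count from 0 to 1 and the ovary-specific count from 1 (without ovary replicate 4) to 3. Tissues fitted in pairs gave 0 brain-specific keratins. Library totals in place of TMM factors gave a summed keratin level of 341 CPM in the ovary and 1136 in the liver, -0.12 for LOC106566189 pituitary gland over brain and -0.13 for k1c18 liver over pituitary gland. Without length correction the type II to type I ratio was 0.841 for the pituitary gland, 0.555 for the ovary and 0.264 for the liver. With the replicate block, keratin calls were 10 for brain against pituitary gland, 6 for brain against ovary and 7 for brain against liver. They were 14 for pituitary gland against ovary, 12 for pituitary gland against liver and 9 for ovary against liver. The share of all genes called with the block is not given, so a change particular to keratins cannot be told. LOC106566973 brain over liver turned to -0.084 with the block. The labels give each library only a number. Of all 24 comparisons of same-numbered libraries, 22 correlated best at their own number, a hint of pairing from the data only. The fit without a block leaves out any such pairing. Outside pituitary gland and liver, calls that change with the block are named for only some genes. The causes of these changes were not tested. Genes under 3 counts in a library cannot be placed between tissues at this depth.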
